A study of Homo sapiens with 8 samples.

Results

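Members of the Polycomb and trithorax complexes, and of the complexes that contain known protein partners of TET1, were followed in HEK293T, an SV40 T-antigen line from human embryonic kidney. The set holds 49 genes listed by complex membership, a list drawn up with earlier results of these arrays known. Of these, 40 matched a transcript cluster with that gene symbol, among the 14884 symbols named on the array, and all 40 passed the low-signal filter (a value above the array's own median on at least 2 of the 8 arrays). The other 9, KMT2A, BMI1, CBX8, SETD1B, RNF2, EED, JARID2, ASH2L and SAP30, were not analysed here. Where a gene had several clusters, the cluster with the highest 8-array mean stands for it.

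There was 1 Affymetrix array for each of 4 TET1 plasmids, namely wild-type TET1-CD, its catalytic mutant mTET1-CD, wild-type TET1-FL and its catalytic mutant mTET1-FL, and 1 array for the empty vector. These cells were transfected with FuGene HD and sorted by fluorescence 3 days later. A further 3 arrays held cells with a lentiviral shRNA, 2 clones made with TET1 shRNA (shTET1#1 and shTET1#2) and 1 clone with control shRNA (shControl). All cells shared the HEK293T background, each shRNA array held 1 selected clone, and the promoter of the plasmids was not given in the sources used here. No label says that any sample came from a separate culture of the same treatment. Every p-value below therefore rests on spread among arrays that differ in clone or plasmid, not among repeats of a treatment. For most comparisons this spread is how far shTET1#1 lay from shTET1#2, and how wild-type minus mutant shifted from CD to FL. Where arrays were pooled into 2 groups, differences between treatments within a group count as spread. Technical variation may add to it and cannot be separated.

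As background, Polycomb repressive complex 2 (PRC2) methylates histone H3 at the lysine called H3K27 through EZH2 or EZH1, and Polycomb repressive complex 1 (PRC1) reads that mark through CBX proteins and ubiquitinates histone H2A through RING1 and RNF2 bound to a PCGF protein. Trithorax-group complexes place the opposing H3K4 methylation, and dedicated demethylases remove either mark. TET1, a dioxygenase that oxidises 5-methylcytosine, is known to bind the O-GlcNAc transferase OGT and the SIN3A corepressor, and its genomic sites overlap those of PRC2 in mouse embryonic stem cells.

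The promoters of the set were rich in CG dinucleotides, the sequence whose cytosine carries most DNA methylation in mammals. RefSeq promoter windows (GRCh38.p14, 250 bases before to 50 bases after the start) were found for 37 of the 40 measured genes, which together have 55 such windows. The median window of the set held 29 CG dinucleotides, against a median of 14 over all 35116 promoter windows. The windows of KDM5B, the gene with the largest difference between TET1 plasmids and vector, and of OGT, the TET1 partner that differed in the opposite direction, are shown with every CG in capitals. KDM5B lies on the minus strand at chr1:202808372-202808671 and held 34 CG, and 15.6% of all promoter windows held at least as many. OGT lies on the plus strand at chrX:71532854-71533153 and held 26 CG, and 30.1% of all windows held at least as many.
KDM5B: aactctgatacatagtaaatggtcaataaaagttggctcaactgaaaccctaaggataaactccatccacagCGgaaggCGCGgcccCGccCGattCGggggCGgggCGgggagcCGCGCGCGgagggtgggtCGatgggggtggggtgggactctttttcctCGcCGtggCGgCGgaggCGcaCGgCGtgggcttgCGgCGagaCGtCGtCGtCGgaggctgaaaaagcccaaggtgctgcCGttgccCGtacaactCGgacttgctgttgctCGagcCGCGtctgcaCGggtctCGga
OGT: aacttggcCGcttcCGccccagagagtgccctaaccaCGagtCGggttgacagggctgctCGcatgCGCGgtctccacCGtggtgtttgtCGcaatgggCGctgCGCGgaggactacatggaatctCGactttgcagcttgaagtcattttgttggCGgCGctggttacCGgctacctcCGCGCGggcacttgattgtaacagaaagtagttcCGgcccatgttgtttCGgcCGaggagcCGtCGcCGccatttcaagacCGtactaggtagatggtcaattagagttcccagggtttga

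The letters TTTCCCGC and TTTGGCGC, forms of the site that E2F cell-cycle factors are known to bind, were searched on both strands, and no window of the set held both. Of the 55 windows of the set, 5 held either motif (9.09%), against 2.27% of all promoter windows (1.63% for TTTCCCGC and 0.652% for TTTGGCGC). Both motifs contain a CG, and the windows of the set are richer in CG than all windows (median 29 against 14). Whether the share differs from that of other windows as rich in CG was not tested. The 5 windows belong to SIN3A and to EZH2, SUZ12, MTF2 and PHF19 of PRC2. EZH2, PHF19 and SIN3A each have another window, which held neither motif. The windows of EZH1 and of RBBP4 and RBBP7, which PRC2 shares with other complexes, did not hold either motif. The 5 matches are shown as letters. Whether the motif goes with any difference between the arrays was not tested. The capitals mark the motif, which reads as its reverse complement in MTF2, PHF19 and SIN3A. The printed stretches are EZH2 at chr7:148884257-148884316 (minus strand), SUZ12 at chr17:31936792-31936851 (plus strand), MTF2 at chr1:93079262-93079321 (plus strand), PHF19 at chr9:120877307-120877366 (minus strand) and SIN3A at chr15:75451790-75451849 (minus strand). A match describes these letters only and is not evidence of binding.
EZH2: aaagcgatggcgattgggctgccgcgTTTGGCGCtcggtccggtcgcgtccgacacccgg
SUZ12: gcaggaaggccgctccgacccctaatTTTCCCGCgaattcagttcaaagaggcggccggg
MTF2: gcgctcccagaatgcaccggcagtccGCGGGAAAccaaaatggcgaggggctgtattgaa
PHF19: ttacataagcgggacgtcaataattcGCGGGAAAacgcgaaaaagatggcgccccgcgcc
SIN3A: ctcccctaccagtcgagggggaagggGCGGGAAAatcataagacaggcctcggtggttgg

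TET1 itself was measured by 2 transcript clusters, which differ in probes and cannot be set against each other. Cluster 16705381 read 10.42 in TET1-CD, 11.05 in mTET1-CD, 12.22 in TET1-FL and 12.47 in mTET1-FL, against 9.51 in the vector array, on the log2 scale of the deposited values. Cluster 16715048 read 12.10, 12.03, 11.80 and 11.91 in the same 4 arrays, against 5.86 in the vector array. In the shRNA arrays, cluster 16705381 read 8.62 in shTET1#1 and 9.14 in shTET1#2, against 9.29 in the control clone, so its signal was 1.59-fold and 1.11-fold lower. Cluster 16715048 read 5.27 in shTET1#1 and 6.20 in shTET1#2, against 5.71 in the control clone, and was thus higher, not lower, in the array labelled shTET1#2. Directions drawn from that array therefore rest on a clone whose TET1 signal was close to that of the control.

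Array medians lay between 5.47 and 5.55 and pairwise correlations over the 28946 kept clusters between 0.932 and 0.988, and no pair of arrays was identical. Of the marker genes for the line that are named on the array, VIM read 7.92 to 8.60 (cluster 16702767), LHX1 6.28 to 6.73 and PAX2 6.40 to 6.62. The endothelial marker PECAM1, the fibroblast marker DCN and the liver marker ALB did not pass the low-signal filter, while the liver marker APOA1 passed at 6.03 to 6.48. The blood markers were not analysed here. In bulk RNA, fewer cells with a transcript and less of it per cell cannot be told apart. Precision is limited throughout by how few arrays there were.

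Fitted differences were small. None of the 40 genes differed by 2-fold in the comparisons of TET1 plasmids with vector, TET1 shRNA with control, wild-type with mutant, FL with CD or shRNA with plasmid and vector arrays. Some arrays lay more than 2-fold apart: KDM5B read 10.11 in TET1-CD and 8.89 in shControl, and KDM6B 8.19 in mTET1-CD and 7.08 in shControl. Against shControl in place of the vector, a control chosen after seeing the data, the plasmid arrays were also over 2-fold higher for both. The log2 differences were 1.03 for KDM5B and 1.01 for KDM6B. The map of the 40 genes by array shows the values. shControl was the highest or lowest of the 8 arrays for 42.5% of the 40 genes, against 29.2% of all kept clusters. shTET1#2 was the lowest array for 12 of the genes and the highest for 0, together 30% of the genes, against 33.5% of all kept clusters at which it was highest or lowest.

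**Figure D1:**
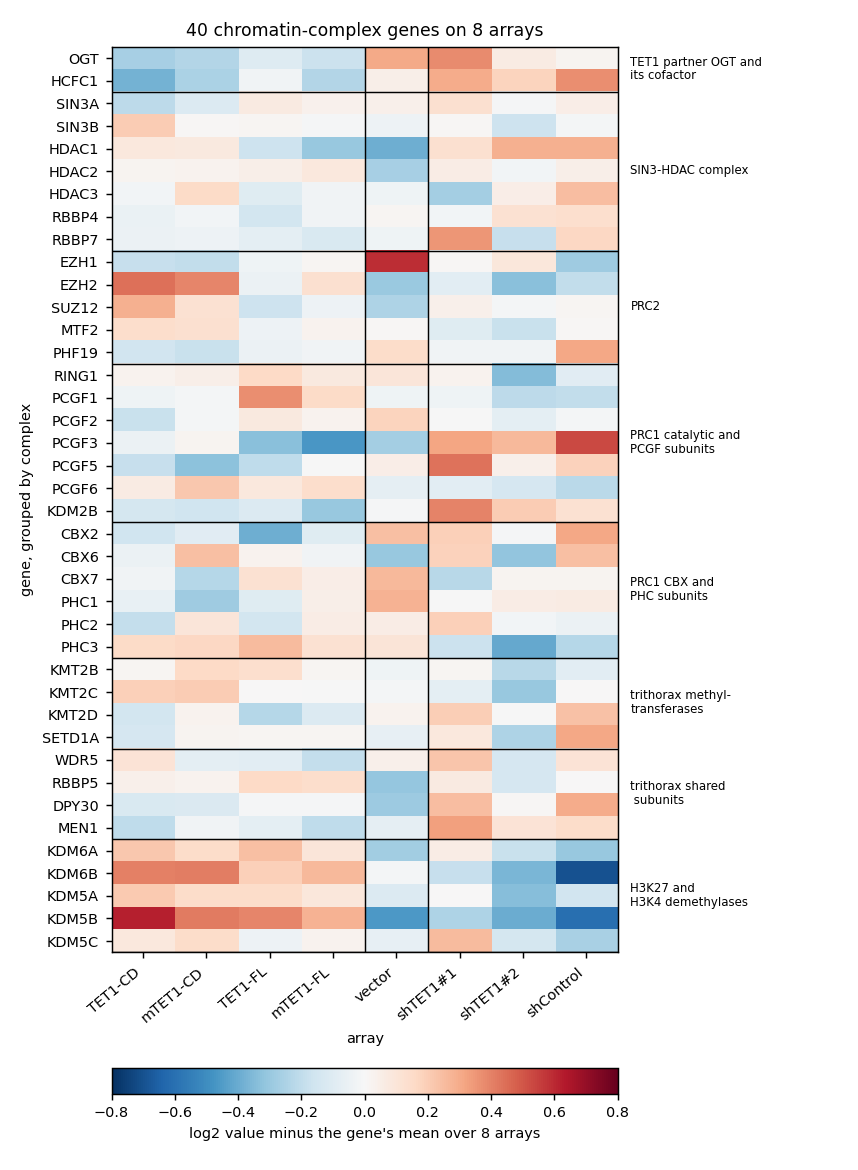
The map shows each of the 40 genes (rows, grouped by complex) on each of the 8 arrays (columns) as the log2 value minus the gene's mean over the 8 arrays, red above the mean and blue below it. KDM5B, KDM6B and KDM6A are red in the 4 TET1 plasmid arrays, and EZH1 is reddest in the vector array, at 9.97.

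The 4 TET1 plasmid arrays were set against the empty vector to ask how added TET1, active or mutant, goes with the levels of these genes. The 5 genes listed as demethylases of H3K27 or H3K4 stood above the vector in all 4 plasmid arrays, with KDM5B the furthest at 1.85-fold, while OGT, its substrate HCFC1 and the PRC2 gene EZH1 stood below it. No gene passed the adjusted threshold of 0.05 in limma, where 0% of the 28946 clusters did and the lowest adjusted p of all was 0.162. At an unadjusted p under 0.05, 4 of the 40 genes were higher (KDM5B, EZH2, KDM6A and RBBP5) and 3 lower (EZH1, OGT and CBX2), against 8.78% of all clusters higher and 6.26% lower, shares close to those of the 40 genes. Of the 40 genes, 22 lay above 0 and 18 below it, and their median difference was 0.0505 on the log2 scale, against 0.00142 over all clusters.

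KDM5B, a demethylase of H3K4, read 10.11 in TET1-CD, 9.91 in mTET1-CD, 9.89 in TET1-FL and 9.77 in mTET1-FL, against 9.03 in the vector array. Its fitted difference was 0.89 ± 0.14 (SE) on the log2 scale (limma adjusted p = 0.176). The wild-type and mutant arrays were both above the vector, and so were all 4 plasmid arrays above each of the 3 shRNA arrays, which read 9.25 in shTET1#1, 9.10 in shTET1#2 and 8.89 in shControl. KDM6A, an X-linked demethylase of H3K27, read 9.51, 9.44, 9.54 and 9.40 in the same order of arrays, against 9.02 in the vector array (0.45 ± 0.16, adjusted p = 0.302). KDM6B, the other H3K27 demethylase of the set, read 8.18, 8.19, 7.97 and 8.04 in the same order, against 7.76 in the vector array (0.33 ± 0.15, adjusted p = 0.381). KDM5A and KDM5C, both H3K4 demethylases, differed less, by 0.26 and 0.12. These 5 genes lay above the vector in each of the 4 plasmid arrays, with a median difference of 0.33. Their fitted differences stayed above 0 after centring the arrays on their medians and after cyclic loess. KDM2B, a demethylase of another H3 lysine that is listed with PRC1, lay below the vector in all 4 plasmid arrays.

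Within PRC2, the catalytic subunits EZH2 and EZH1 lay on opposite sides of the vector. EZH2 read 10.32 in TET1-CD, 10.27 in mTET1-CD, 9.84 in TET1-FL and 10.01 in mTET1-FL, against 9.59 in the vector array (0.52 ± 0.17, limma adjusted p = 0.278). EZH1 read 9.20, 9.19, 9.34 and 9.39 in the same order, against 9.97 in the vector array (-0.69 ± 0.14, adjusted p = 0.19). The EZH1 difference rested on the vector array alone, since shTET1#1, shTET1#2 and shControl read 9.39, 9.47 and 9.10 and overlapped the plasmid arrays. Against shControl in place of the vector, a control chosen after seeing the data, EZH1 was 0.18 higher in the plasmid arrays and not lower, and EZH2 was still 0.42 higher. SUZ12, the scaffold of PRC2, read 10.22, 10.06, 9.77 and 9.90 in the plasmid arrays, against 9.69 in the vector array (0.30 ± 0.15). The vector array was its lowest, and against shControl SUZ12 was 0.039 higher in the plasmid arrays. The Polycomb-like subunits MTF2 and PHF19, which bind CG-rich DNA, differed by 0.058 and -0.25.

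OGT, the enzyme that adds O-GlcNAc to nuclear proteins and binds TET1, read 10.58 in TET1-CD, 10.61 in mTET1-CD, 10.74 in TET1-FL and 10.67 in mTET1-FL, against 11.14 in the vector array (-0.49 ± 0.17, limma adjusted p = 0.305). HCFC1, a transcriptional coregulator that OGT cleaves, read 9.59, 9.72, 9.94 and 9.73 in the same order, against 10.01 in the vector array (-0.27 ± 0.16, adjusted p = 0.507). Both genes lay below the vector in all 4 plasmid arrays. The SIN3 corepressor genes stood close to the vector, with SIN3A at -0.092 ± 0.15 (adjusted p = 0.837) and SIN3B at 0.096 ± 0.15. Of the histone deacetylases they recruit, HDAC1 differed by 0.31 ± 0.15, HDAC2 by 0.31 ± 0.14 and HDAC3 by 0.036 ± 0.18. The vector array was the lowest of the 8 arrays for HDAC1 and HDAC2. Against shControl, a control chosen after seeing the data, HDAC1 was at -0.36, HDAC2 at 1.9e-05 and HDAC3 at -0.24. The histone-binding proteins RBBP4 and RBBP7, shared with PRC2, differed by -0.079 and -0.036.

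In PRC1, CBX2, a reader of H3K27 methylation, read 7.75 in TET1-CD, 7.82 in mTET1-CD, 7.52 in TET1-FL and 7.81 in mTET1-FL, against 8.15 in the vector array (-0.43 ± 0.16, limma adjusted p = 0.322). PHC1, a polyhomeotic subunit, differed by -0.38 ± 0.16 and the reader CBX6 by 0.35 ± 0.24. Against shControl, a control chosen after seeing the data, CBX2 was at -0.49, PHC1 at -0.17 and CBX6 at -0.19. The PCGF genes, which set the type of PRC1 complex, lay between -0.23 for PCGF5 and 0.20 for PCGF6. KDM2B, which brings PCGF1 complexes to unmethylated CG-rich DNA, differed by -0.17 ± 0.16. Among trithorax genes, the 4 methyltransferases lay between -0.14 for KMT2D and 0.11 for KMT2B. RBBP5, a subunit shared by their complexes, read 9.16, 9.15, 9.28 and 9.26 in the same order of arrays, against 8.81 in the vector array (0.40 ± 0.15, adjusted p = 0.323). shTET1#1, shTET1#2 and shControl read 9.19, 8.99 and 9.13, all between the vector and the highest plasmid array.

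Because all those differences use the same vector array, the 4 plasmid arrays were also compared with all 4 arrays that received no TET1 plasmid, a comparison added after the data were seen; it mixes the vector with the shRNA clones. The groups did not overlap for 13 of the 40 genes. EZH2, PCGF6, PHC3, KDM6A, KDM6B, KDM5A and KDM5B were higher in the plasmid arrays (7 genes, against 7.89% of all clusters), and OGT, HCFC1, RBBP4, PCGF5, KDM2B and CBX2 were lower (6 genes, against 5.79%). The higher genes included 4 of the 5 listed H3K27 and H3K4 demethylases, the exception being KDM5C, and the lower ones included OGT, HCFC1 and the demethylase KDM2B. In a 2-group limma fit of these arrays KDM5B rose by 0.85 (adjusted p = 0.00772), and no other of the 40 genes passed the threshold. Of all 28946 kept clusters 1099 were called, 821 higher and 278 lower. KDM6B differed by 0.63 (adjusted p = 0.0503), OGT by -0.38 (adjusted p = 0.0827), HCFC1 by -0.45 (adjusted p = 0.0627) and EZH2 by 0.45 (adjusted p = 0.0859). Delivery and sorting also differ between these groups and cannot be told apart from the plasmid for the shRNA arrays.

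**Figure D2:**
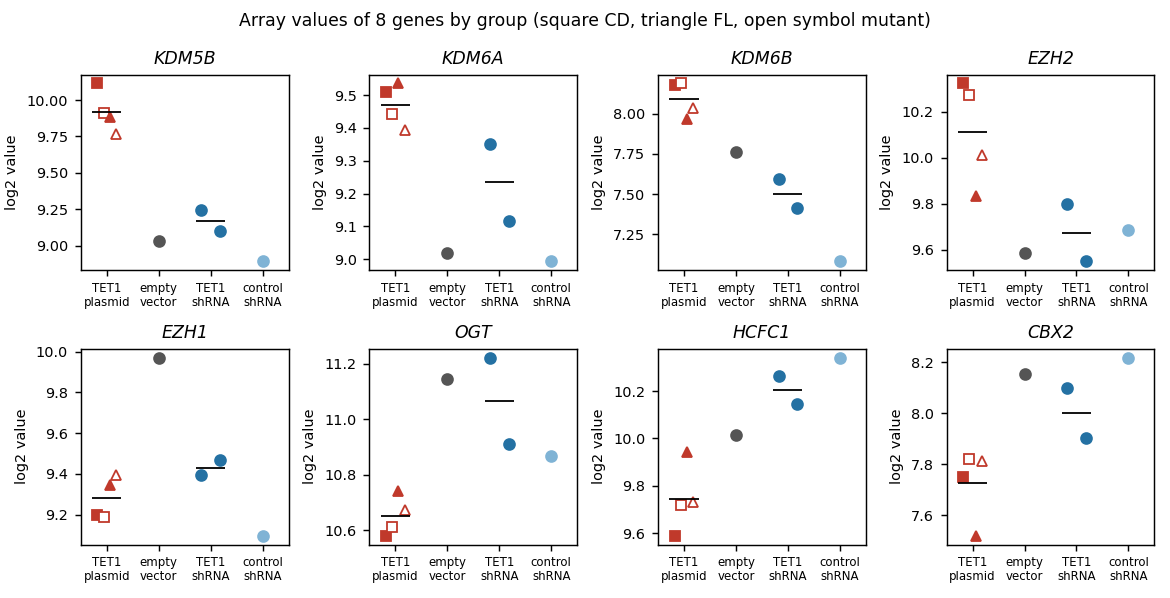
Each panel plots the log2 values of 1 gene by group, TET1 plasmid (red, squares CD, triangles FL, open symbols mutant), empty vector (grey), TET1 shRNA (dark blue) and control shRNA (light blue), with a bar at the mean where a group has several arrays; the vertical axes do not start at 0 and differ between panels. KDM5B, KDM6A, KDM6B and EZH2 are higher in the 4 plasmid arrays than in the 4 other arrays, OGT, HCFC1 and CBX2 are lower, and EZH1 is high only in the vector array at 9.97.

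The TET1 shRNA clones were compared with the control clone to ask what goes with less TET1. KDM6B and EZH1 stood higher in both TET1 shRNA clones, and SETD1A, HDAC3 and PHF19 stood lower in both. The fitted differences of these genes, in either direction, were 1.26-fold to 1.34-fold. No gene passed the adjusted threshold in limma (0% of all clusters did, lowest adjusted p 0.16). At an unadjusted p under 0.05, 1 of the 40 genes was higher (KDM6B) and 0 lower, against 3.36% and 4.56% of all clusters. With 1 control clone, TET1 knockdown cannot be told apart from differences between clones.

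KDM6B read 7.59 in shTET1#1 and 7.41 in shTET1#2, against 7.08 in the control clone (0.42 ± 0.16, limma adjusted p = 0.63). EZH1 read 9.39 and 9.47 in the TET1 shRNA clones, against 9.10 in the control clone (0.33 ± 0.15, adjusted p = 0.68). KDM5C, an H3K4 demethylase, read 8.02 and 7.63, against 7.51 in the control clone (0.32 ± 0.21, adjusted p = 0.782). Of these the first clone was the further from the control for KDM6B and KDM5C, and the second for EZH1. For each of these genes the control clone was the lowest of the 8 arrays. Against the empty vector in place of the control clone, KDM6B was at -0.26 and EZH1 at -0.54, so both directions turned with the control. KDM5C was at 0.12 in that setting.

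SETD1A, a methyltransferase of H3K4, read 8.41 in shTET1#1 and 8.08 in shTET1#2, against 8.64 in the control clone (-0.39 ± 0.20, limma adjusted p = 0.716). HDAC3, a histone deacetylase of the corepressor complexes, read 8.41 and 8.74, against 8.93 in the control clone (-0.35 ± 0.19, adjusted p = 0.734). PHF19 read 7.26 in both TET1 shRNA clones, against 7.60 in the control clone (-0.34 ± 0.15, adjusted p = 0.667). For these genes the control clone was the highest of the 8 arrays. With the empty vector as the control, SETD1A was at -0.019, HDAC3 at -0.074 and PHF19 at -0.17.

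The TET1 partners and EZH2 showed no difference beyond the spread between the clones. OGT read 11.22 in shTET1#1 and 10.91 in shTET1#2, against 10.87 in the control clone (0.20 ± 0.19, limma adjusted p = 0.859). SIN3A read 10.22 and 10.08, against 10.14 in the control clone (0.0078 ± 0.16, adjusted p = 0.999). EZH2 read 9.80 and 9.55, against 9.69 in the control clone (-0.010 ± 0.19, adjusted p = 0.999). For SIN3A and EZH2 the control lay between the clones.

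Across the complexes, 13 of the 40 genes lay above 0 and 27 below it, with a median of -0.0361, against -0.0104 over all clusters. The clones differed: the median was 0.0631 in shTET1#1 and -0.135 in shTET1#2. After centring the arrays on their medians 19 genes lay above 0 and 21 below it, and after cyclic loess 21 and 19. The median was -0.0078 after centring and 0.0158 after cyclic loess, so it turned direction under cyclic loess. Both clones lay on the same side of the control for 9 genes above it and 14 below it, together 57.5% of the genes, against 62.8% of all clusters. Of the 5 listed demethylases 4 lay above 0 in both clones, with a median of 0.28, and KDM5A lay at -0.017 and turned positive under both of those scalings. All 4 trithorax methyltransferases measured lay below 0, at a median of -0.16, though KMT2B at -0.022 turned positive under both scalings. In the SIN3 complex 1 of 7 genes lay above 0, and in the CBX and PHC group 1 of 6, PHC2.

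**Figure D3:**
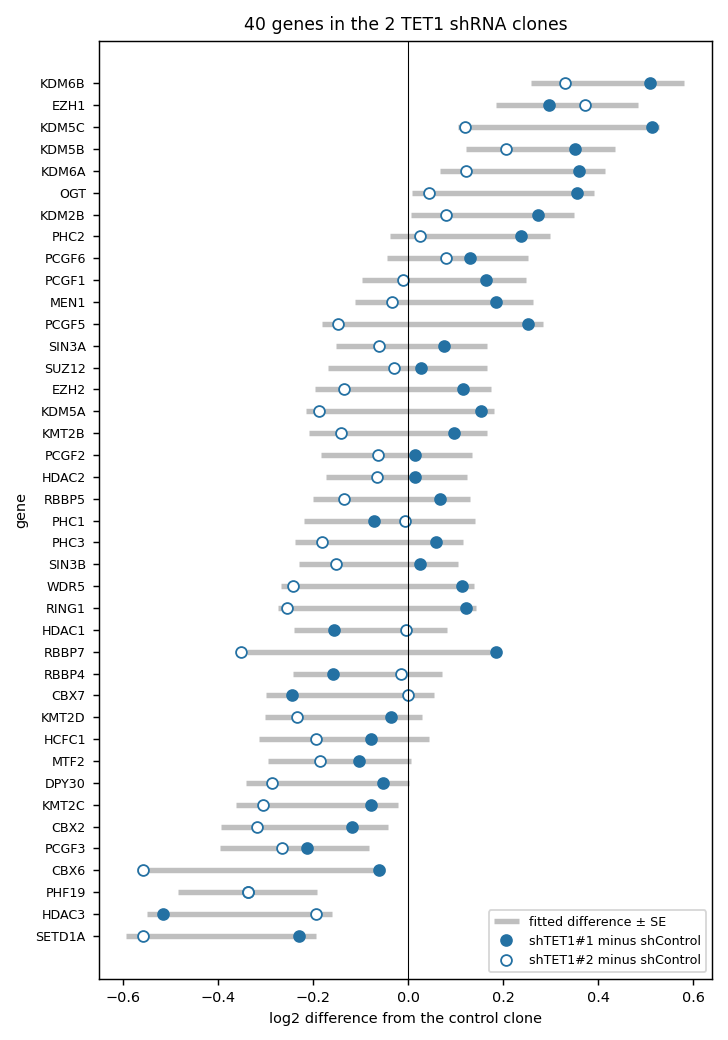
For each of the 40 genes, ordered by the fitted difference, filled points give shTET1#1 minus shControl and open points shTET1#2 minus shControl on the log2 scale, and grey bars the fitted difference ± SE. KDM6B, EZH1 and KDM5C lie highest, and SETD1A, HDAC3 and PHF19 lowest, and most open points lie left of the filled ones.

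Wild-type TET1 plasmids were compared with their catalytic mutants to ask which differences go with the dioxygenase activity. None of the 40 genes differed at an unadjusted p under 0.05 in limma (0 higher and 0 lower, against 1.04% and 0.915% of all clusters), and none passed the adjusted threshold, as for all clusters (0%, lowest adjusted p 1). Every one of the 40 differences lay between -0.25 and 0.16 on the log2 scale. The median was -0.00282, against 0.00265 over all clusters, with 19 genes above 0 and 21 below it.

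The highest members with the same sign in both constructs were KDM5B (0.16 ± 0.13), WDR5, the subunit that docks trithorax enzymes on H3 (0.15 ± 0.17), and the reader CBX7 (0.14 ± 0.14). The lowest were PHC2 (-0.25 ± 0.14), CBX2 (-0.18 ± 0.14) and the enhancer methyltransferase KMT2D (-0.15 ± 0.13). PHC2 read 7.01 in TET1-CD and 7.06 in TET1-FL, against 7.31 in mTET1-CD and 7.27 in mTET1-FL. Its wild-type and mutant arrays did not overlap, as for 5 of the 40 genes in the lower and 3 in the higher direction, against 11.1% and 9.88% of all clusters. OGT (0.018 ± 0.16), SIN3A (-0.029 ± 0.13) and EZH2 (-0.064 ± 0.15) had opposite signs in CD and FL. A difference of the size of the SEs, about 0.13 to 0.16, was not detectable with these arrays.

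The FL constructs were compared with the CD constructs, wild-type and mutant pooled. PCGF3, a PRC1 subunit, and EZH2 and HDAC1 stood lower with FL, and PCGF1 stood higher. No gene passed the adjusted threshold in limma (0% of all clusters did, lowest adjusted p 0.114). At an unadjusted p under 0.05, 0 of the 40 genes were higher and 1 (PCGF3) lower, against 8.86% and 4.87% of all clusters. Of the 40 genes 17 lay above 0 and 23 below it, at a median of -0.0255, against 0.00311 over all clusters. Most of those clusters carry no gene symbol. Over the 10797 genes with a symbol that passed the filter, the median was -0.0243 and 44.7% lay above 0, close to the 40 genes. Of these 10797, 436 were higher and 526 lower at an unadjusted p under 0.05. Without the mutant arrays the median of the 40 genes was 0.0218, and without the wild-type arrays it was -0.0454.

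PCGF3 read 7.61 in TET1-FL and 7.47 in mTET1-FL, against 7.89 in TET1-CD and 7.96 in mTET1-CD (-0.39 ± 0.13, limma adjusted p = 0.3). EZH2 read 9.84 and 10.01 in TET1-FL and mTET1-FL, against 10.32 and 10.27 in TET1-CD and mTET1-CD (-0.37 ± 0.15, adjusted p = 0.383). HDAC1 read 9.80 and 9.66 in the FL arrays, against 10.05 and 10.05 in the CD arrays (-0.32 ± 0.13, adjusted p = 0.392). Of the 40 genes, 12 were higher in FL without overlap between the FL and CD arrays and 13 were lower without overlap, these 3 among the lower, against 27.6% and 25.7% of all clusters. The EZH2 excess over the vector was larger in the CD arrays.

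PCGF1, which defines the PRC1 complex that holds KDM2B and BCOR, read 7.87 in TET1-FL and 7.65 in mTET1-FL, against 7.47 in TET1-CD and 7.49 in mTET1-CD (0.29 ± 0.14, limma adjusted p = 0.472). CBX7 differed by 0.22 ± 0.14 (adjusted p = 0.609). SIN3A read 10.16 in TET1-FL and 10.12 in mTET1-FL, against 9.88 in TET1-CD and 9.98 in mTET1-CD (0.21 ± 0.13, adjusted p = 0.569). OGT differed by 0.11 ± 0.16 (adjusted p = 0.834). The 5 listed demethylases all lay below 0, at a median of -0.12, the FL arrays holding the smaller excess over the vector, except that KDM6A, at -0.011, turned positive after cyclic loess.

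**Figure D4:**
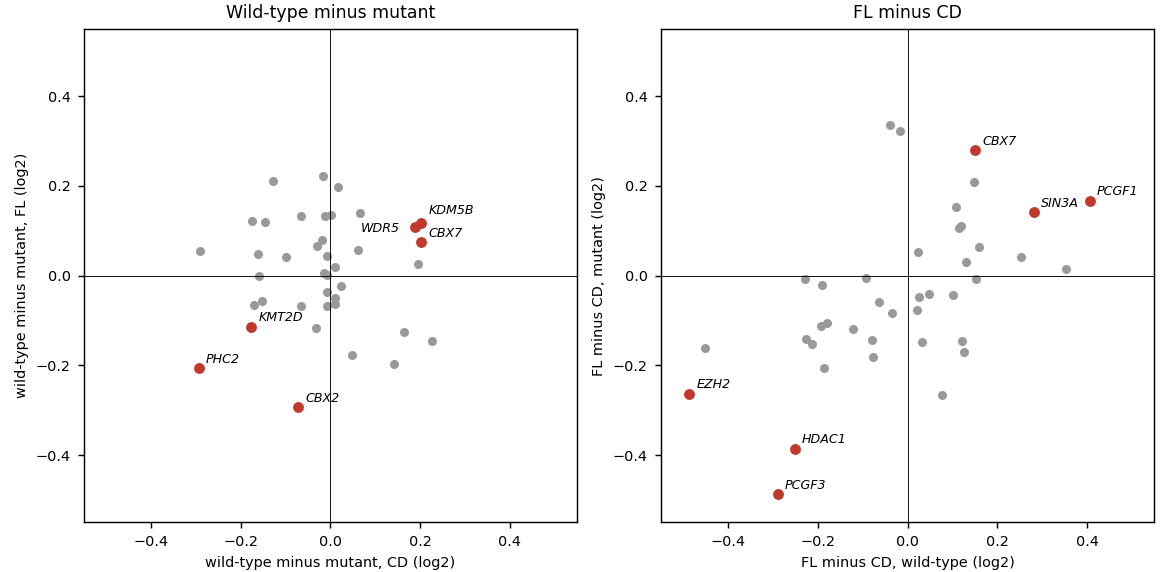
The left panel plots, for each of the 40 genes, the log2 difference wild-type minus mutant in the CD arrays (horizontal) and in the FL arrays (vertical), and the right panel FL minus CD in the wild-type arrays (horizontal) and in the mutant arrays (vertical). Named points are the 3 highest and 3 lowest genes with the same sign in both readings, such as PHC2 at -0.29 and -0.21 on the left and PCGF3 at -0.29 and -0.49 on the right.

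The 3 shRNA arrays were set against the 5 plasmid and vector arrays, which differ in lentiviral or transient delivery, clonal selection and sorting, and these cannot be told apart. PCGF3 was 1.5-fold higher in the shRNA arrays, and KDM6B and PHC3 were 1.58-fold and 1.35-fold lower. These were the genes of the set past the adjusted threshold in the 2-group limma fit (3 of 40, 1 higher and 2 lower), against 4.27% of all clusters. At an unadjusted p under 0.05, 7 genes were higher and 5 lower, against 10.3% and 12.5% of all clusters. The 3 and 5 arrays did not overlap for 6 genes that were higher and 3 that were lower, against 7.67% and 8.18% of all clusters. For a gene whose arrays do not overlap, the exact two-sided permutation test over the 56 ways to choose 3 of 8 arrays gives its smallest possible p, 0.0357. This comparison shares arrays with all the others.

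PCGF3 averaged 8.31 ± 0.14 in the shRNA arrays and 7.72 ± 0.20 in the plasmid and vector arrays (SD, n = 3 and 5), a rise of 0.59 ± 0.13 (limma adjusted p = 0.0463). KDM6B averaged 7.36 ± 0.26 and 8.03 ± 0.18 in the same order and fell by 0.66 ± 0.14 (adjusted p = 0.0416). PHC3, a polyhomeotic subunit, averaged 8.17 ± 0.12 and 8.60 ± 0.058 and fell by 0.43 ± 0.092 (adjusted p = 0.0404). KDM6B and PHC3 separated the vector from the shRNA arrays too, with the vector at 7.76 and 8.54 and the highest shRNA array at 7.59 and 8.27. These calls rest on every shRNA and every TET1 plasmid array: with any 1 of those arrays left out, none of the 40 genes passed the threshold. Without the vector array KDM6B and PHC3 stayed past it (adjusted p = 0.0216 and 0.0319) and PCGF3 did not (adjusted p = 0.0515). In that setting 2 of the 40 genes were called higher and 3 lower, and of all clusters 864 higher and 1410 lower. Without the low-signal filter all 3 calls were lost (adjusted p = 0.0777 for PCGF3, 0.0698 for KDM6B and 0.0694 for PHC3), and after centring the arrays that of KDM6B was lost (adjusted p = 0.0509).

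Below the threshold, HCFC1 was 0.45 ± 0.12 higher in the shRNA arrays (limma adjusted p = 0.0655), KDM2B 0.38 ± 0.10 higher (adjusted p = 0.0714) and MEN1, the menin subunit of trithorax complexes, 0.31 ± 0.095 higher (adjusted p = 0.095). HDAC1 and DPY30, a shared trithorax subunit, were 0.37 and 0.29 higher, and these 5 genes, like PCGF3, did not overlap between the groups. KDM5B was 0.66 ± 0.22 lower (adjusted p = 0.123), but its vector array at 9.03 lay among the shRNA arrays. KMT2D was 0.23 ± 0.10 higher (adjusted p = 0.233). PCGF6, the third gene lower without overlap beside KDM6B and PHC3, was 0.23 lower. OGT (0.25 ± 0.15, adjusted p = 0.362), SIN3A (0.094 ± 0.099, adjusted p = 0.629) and EZH2 (-0.33 ± 0.17, adjusted p = 0.298) overlapped between the groups. The 5 listed H3K27 and H3K4 demethylases lay below 0 under each scaling, at a median of -0.26 as deposited, while KDM2B lay above 0.

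**Figure D5:**
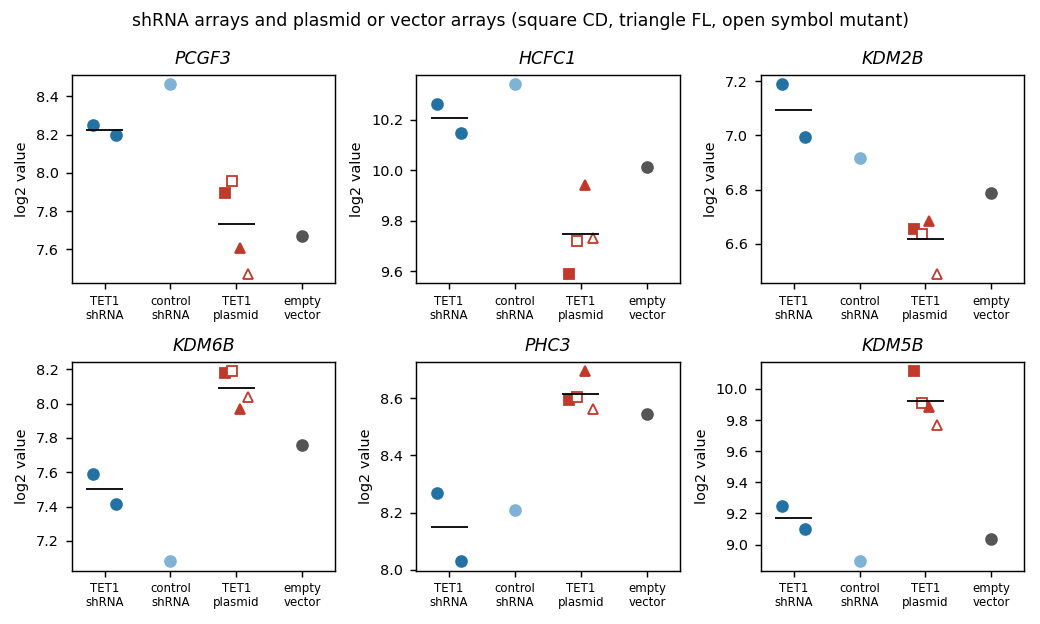
Each panel plots the log2 values of 1 gene in TET1 shRNA (dark blue), control shRNA (light blue), TET1 plasmid (red, squares CD, triangles FL, open symbols mutant) and empty vector (grey) arrays, with a bar at the mean where a group has several arrays; the vertical axes do not start at 0. PCGF3, HCFC1 and KDM2B are higher in all 3 shRNA arrays, KDM6B and PHC3 are lower in all 3, and KDM5B overlaps through the vector array at 9.03.

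A further 68 genes of the same complexes and of the O-GlcNAc pathway were listed as a frame, and 47 of them were measured. None passed the adjusted threshold in the comparisons of TET1 shRNA with control, wild-type with mutant, plasmids with vector or FL with CD. At an unadjusted p under 0.05, 5 were higher and 1 lower in the plasmid arrays than in the vector array, against 8.78% and 6.26% of all clusters. In the FL arrays 0 were higher and 4 lower than in the CD arrays, against 8.86% and 4.87% of all clusters. Of the 47, 11 lay above 0 at a median of -0.12, against 50.7% of all clusters above 0. Among the 10797 genes with a symbol, 44.7% lay above 0, at a median of -0.0243. The largest plasmid differences were those of RYBP, a subunit of variant PRC1 (0.79 ± 0.15, limma adjusted p = 0.19), HCFC2, a relative of HCFC1 (0.71 ± 0.25, adjusted p = 0.306), and ARID4B, a subunit of the SIN3 complex (0.62 ± 0.16, adjusted p = 0.232). KAT8, a histone acetyltransferase that works with trithorax enzymes, was the gene lower (-0.40 ± 0.14, adjusted p = 0.307). In the TET1 shRNA clones SCML2, a PRC1-associated protein, was the gene above the unadjusted threshold (1.02 ± 0.27, adjusted p = 0.542), and PAGR1, a partner of KMT2C and KMT2D, lay lowest (-0.49 ± 0.35, adjusted p = 0.798).

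Between the shRNA arrays and the plasmid and vector arrays, 3 of the 47 passed the adjusted threshold, against 4.27% of all clusters. BCOR, the corepressor of the PCGF1 complex, rose by 0.56 ± 0.10 (limma adjusted p = 0.027). OGA, which removes the O-GlcNAc that OGT adds, fell by 0.41 ± 0.086 (adjusted p = 0.0391), and GATAD2B, a subunit of the NuRD deacetylase complex, fell by 0.38 ± 0.083 (adjusted p = 0.0416). OGA and HCFC2 (-0.73 ± 0.21, adjusted p = 0.0842) were thus lower in the shRNA arrays while OGT and HCFC1 lay above 0. Of these genes only OGA passed the threshold. NAGK, an enzyme that salvages N-acetylglucosamine, differed by 0.31 ± 0.14 (adjusted p = 0.231).

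RING1 had 6 transcript clusters with identical values, which cannot be separated. HDAC2, PHC1 and CBX6 had 2 clusters each, and the lower HDAC2 cluster, at a mean of 4.93, lay below the array medians.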

How the data were processed

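RNA from HEK293T cells was profiled on 8 arrays; per the labels' protocols, 100 ng of total RNA was amplified and biotin-labelled. The authors deposited log2 values, made with RMA (background correction, normalization between arrays and summary per transcript cluster) in Expression Console 1.3.1, both credited to the submitters' processing notes. The genome build is not given in the sources used here. Of 53981 rows, 364 held no value, and 16098 of the other 53617 clusters had 1 gene symbol (none had several) in the platform annotation, updated by gene number through RefSeq. The low-signal filter kept 28946 clusters. The comparisons of TET1 shRNA with control, of wild-type with mutant, of plasmids with vector and of FL with CD came from 1 limma 3.58.1 fit (R 4.3.3; lmFit, eBayes) of all 8 arrays with terms for each shRNA group, the vector, wild-type plasmids, mutant plasmids and the construct; its 2 residual degrees of freedom are the clone difference and the change of wild-type minus mutant between constructs (prior SD 0.154, prior degrees of freedom 2.89). The comparison of 3 shRNA with 5 other arrays used a 2-group fit (6 residual degrees of freedom). P-values were adjusted by Benjamini-Hochberg over all kept clusters, with a threshold of 0.05; single members also got an exact permutation test. The fits were tested on simulated data.

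The members and lists were chosen with earlier results of these data known. The genes given in full were OGT, SIN3A and EZH2, per comparison the 3 highest and 3 lowest members with the same sign in every reading, the 2 members of each list with the largest difference, and members past the threshold. Promoter sequences are RefSeq's (GRCh38.p14). Alternatives were no filter, median centring, cyclic loess, a trended prior, 1 cluster per symbol, the mean over clusters, other controls and arrays left out.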

Additional observations from a re-analysis of the deposited data

How the results depend on the processing

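Of the differences of named members under the alternatives, 444 stayed on the same side of 0 and of the threshold, 27 lost the call, 8 gained it and 14 turned. No filter, a trended prior and 1 cluster per symbol leave each difference as it was and can change only its p-value. Members named for the same sign in every reading could not turn when a clone or a construct was left out. In those cases the side of 0 was fixed in advance, so the 444 is no measure of stability. For TET1 shRNA minus control, 5 clusters passed the threshold with 1 cluster per gene symbol, and 0 otherwise. EZH2 turned to 0.0184 after centring, 0.0207 after cyclic loess and 0.0867 against the vector; with 1 clone left out it ranged from -0.135 to 0.115 and SIN3A from -0.0602 to 0.0757, and KDM6B, EZH1 and OGT turned to -0.259, -0.54 and -0.0778 against the vector. For wild-type minus mutant, OGT turned to -0.00475 after centring. Without the CD or the FL arrays the median of the members ranged from -0.00939 to 0.0224, SIN3A from -0.0992 to 0.0409, OGT from -0.0301 to 0.0653 and EZH2 from -0.176 to 0.0483. For plasmids minus vector the median was 0.0169 after cyclic loess and, with the CD or the FL arrays left out, 0.0132 to 0.0316, while SIN3A ranged from -0.198 to 0.0137. With alternatives chosen after seeing the data, the median was -0.0248 and EZH1 0.184 against the control shRNA. Against the 4 arrays without a TET1 plasmid, also chosen after seeing the data, the median was -0.0407. There 1099 of the 28946 clusters and 1 of the 40 members passed. For FL minus CD the median was -0.0874 after centring, which shifts all clusters to -0.0588. For shRNA minus plasmid and vector arrays, 541 clusters and 0 members passed without the filter. With 1 cluster per gene symbol 5 members passed. Of all 10797 clusters tested there, 449 were called higher and 512 lower, a larger share than the 4.27% of the main fit. Leaving out 1 array gave 194 to 2274 clusters and 0 to 5 members, with 0 members in each case except without the vector (5 members, where 2274 clusters passed). After centring KDM6B lost its call (adjusted p = 0.0509) and HCFC1 gained one (adjusted p = 0.047). In the common fit PHC3 lost its call (adjusted p = 0.0836), and 509 clusters were higher and 1057 lower, against 544 and 691 in the 2-group fit. Of the members, 1 was called higher and 2 lower there, as in the 2-group fit, so another lower member gained a call. Leaving out arrays tests fewer samples, and the cause of the other shifts was not tested. The number of arrays, 1 in most groups, sets the limit of precision.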
